A study of Rattus norvegicus with 109 samples.

Results

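Fos and Jun encode the proteins that pair to form the transcription factor AP-1, and both were among the 19 transcripts measured in rat brainstem. These 2 genes were taken by their names in the table of normalised values, in all 109 sections. Fos cannot bind DNA as a pair of its own copies and needs a Jun-family partner, whereas Jun can also pair with itself. Both are classed as immediate-early genes, since their transcription can start without new protein synthesis when a cell is stimulated. In neurons, Fos RNA is usually low at rest and rises briefly after strong synaptic input, and it is widely used as a marker of recent activity. The tissue here was the NTS, or nucleus of the solitary tract, where the nerves of the arterial baroreceptors end. There, Fos protein has been used to map the neurons that respond to changes in blood pressure.

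The study measured RNA by quantitative PCR in laser-captured NTS sections of spontaneously hypertensive rats (SHR) and of Wistar Kyoto rats (WKY), the normotensive strain they are usually compared with; the strains were matched for age, and no age is given. Cocktail rats received 25 uL of a 10 uM solution with anti-miR-376a and anti-miR-135a in equal parts, both locked nucleic acid (LNA) inhibitors in artificial cerebrospinal fluid. Scrambled rats received a control LNA designed to match no known transcript, and Sham rats had an empty needle placed. By animal number, WKY had 4 Cocktail rats (27 sections), 5 Scrambled rats (15 sections) and 3 Sham rats (8 sections). SHR had 5 Cocktail rats (17 sections), 2 Scrambled rats (15 sections) and 1 Sham rat (27 sections). The design text states 4 to 5 rats per group, more than these numbers give for WKY Sham, SHR Scrambled and SHR Sham, and the number 4614 occurs in WKY under Cocktail as well as under Scrambled. Sections of a rat were averaged before groups were compared, so that the rat and not the section was the replicate.

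The microRNAs that the Cocktail was made against are shown because they define the treatment. The labels do not say which arm each inhibitor matches, so both arms of the rat RefSeq entries (assembly GRCr8) are given 5′ to 3′, with the seed, bases 2 to 8, in capitals. The miR-135a arms lie at chr7:28499221-28499243 (5p) and chr7:28499183-28499204 (3p) on the minus strand, and the miR-376a arms at chr6:134559383-134559403 (5p) and chr6:134559421-134559441 (3p) on the plus strand. No 2 of the 4 arms share a seed.
rno-miR-135a-5p: uAUGGCUUuuuauuccuauguga
rno-miR-135a-3p: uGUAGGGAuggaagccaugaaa
rno-miR-376a-5p: gGUAGAUUcuccuucuaugag
rno-miR-376a-3p: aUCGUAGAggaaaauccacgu

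Levels are given as minus ΔCt, a log2 scale on which 1 unit is 1 PCR cycle and a higher value means more RNA relative to the other genes of the same section. Folds derived from it assume that each cycle doubles the product. Fos was missing in 1 section, from WKY Scrambled rat 4610. Jun was missing in 7 sections, all from SHR: 2 of Cocktail rat 4595, 1 of Scrambled rat 4600 and 4 of the Sham rat. Whether a missing value was a transcript not detected or a failed reaction cannot be told apart. The median raw cycle number (Ct) of a section, which falls as more RNA enters the reaction, ran from 10.8 to 23.1, and the 9 sections above 18 were all from WKY. The constant subtracted from a section was its median over the genes in 59 of 59 SHR sections but in 1 of 50 WKY sections, where it lay 0.17 lower on average. No label names the PCR run of a section, and the effects of strain and of run cannot be told apart. Of 16 cell type markers listed for this tissue, 2 were measured (Th and Dbh, of noradrenergic neurons). The labels say that sections were identified by DAPI and NeuN staining, but the make-up of cells could not be compared, and fewer cells of a type cannot be told apart from less RNA per cell.

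Jun was much lower in SHR than in WKY in every rat, whatever the procedure. In WKY Cocktail the rat means of Jun were -1.47 in rat 1701, -1.06 in rat 4607, -1.09 in rat 4612 and -2.19 in rat 4614. In WKY Scrambled they were -1.44 in rat 1700, -1.89 in rat 4610, -0.30 in rat 4614, -0.75 in rat 4615 and -1.01 in rat 4618, and in WKY Sham -0.06 in rat 4611, -1.56 in rat 4613 and -1.36 in rat 4617. The 12 WKY values therefore lay within about 2 cycles of each other, with no order by procedure. In SHR Cocktail, Jun was at -3.69 in rat 1694, -6.07 in rat 1696, -4.88 in rat 4595, -6.65 in rat 4598 and -7.13 in rat 4602. The SHR Scrambled rats were at -4.40 (rat 4600) and -7.68 (rat 4604), and the SHR Sham rat at -6.72. The mean over rats was -1.18 ± 0.61 (SD, n = 12) in WKY and -5.90 ± 1.42 (SD, n = 8) in SHR, and the highest SHR rat was below the lowest WKY rat. Groups that did not overlap with SHR the lower were found for 10.5% of the 19 genes, Jun among them.

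With the inhibitors given to both strains, Jun was lower in SHR by a log2 fold change of -4.23 (standard error 0.708, 95% interval -5.72 to -2.74), or 18.8-fold (limma, adjusted p = 8.35e-05). In that comparison 36.8% of the 19 genes passed, 26.3% as lower in SHR, and the difference of Jun was the second in size. Over the control procedures, the mean of Scrambled and Sham, Jun was lower in SHR by -5.35 (standard error 0.752, 95% interval -6.93 to -3.76), or 40.7-fold (limma, adjusted p = 8.17e-06). Here 47.4% of the genes passed, 31.6% as lower in SHR, and the difference of Jun was the largest of the 19. Both strain differences exceeded the spread between rats. The second rested on 3 SHR control rats, 2 Scrambled and 1 Sham. An exact two-sided permutation test of the rats' labels gave Jun an adjusted p of 0.0335 under Cocktail and of 0.0565 over the controls, where 0.0119 is the smallest unadjusted p it can give and 0 of the 19 genes passed (8 had an unadjusted p under 0.05).

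The raw cycle numbers show the gap before any normalisation, but they also carry the RNA input of each section. Jun crossed the detection threshold at a mean of 16.03 ± 1.49 cycles over the WKY rats (SD, n = 12) and at 20.2 ± 2.34 over the SHR rats (SD, n = 8). Fos appeared at 15.7 ± 1.77 cycles in WKY (SD, n = 12) and at 13.7 ± 1.82 in SHR (SD, n = 8). Jun was thus detected later on average in SHR while Fos was not, but the rats of the 2 strains overlapped. Raw Jun ran from 13.9 to 19.0 cycles over the WKY rats and from 15.6 (rat 1694) to 23.5 over the SHR rats. With no normalisation, the strain difference of Jun was -2.69 under Cocktail (limma, adjusted p = 0.148), short of the threshold. Over the controls it was -6.04 (limma, adjusted p = 0.00095). In sections whose median raw Ct lay from 13 to 16, a window chosen after the data were seen, Jun ran from -1.89 to 0.91 in the 20 WKY sections with a median of -0.90. The 34 SHR values in the same window ran from -8.13 to 1.92 with a median of -6.84. Restricted to this window, the log2 difference was -5.73 under Cocktail and -5.45 over the controls. Every SHR reading of Jun came at or before cycle 23.6 of the 30 that were run.

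**Figure D1:**
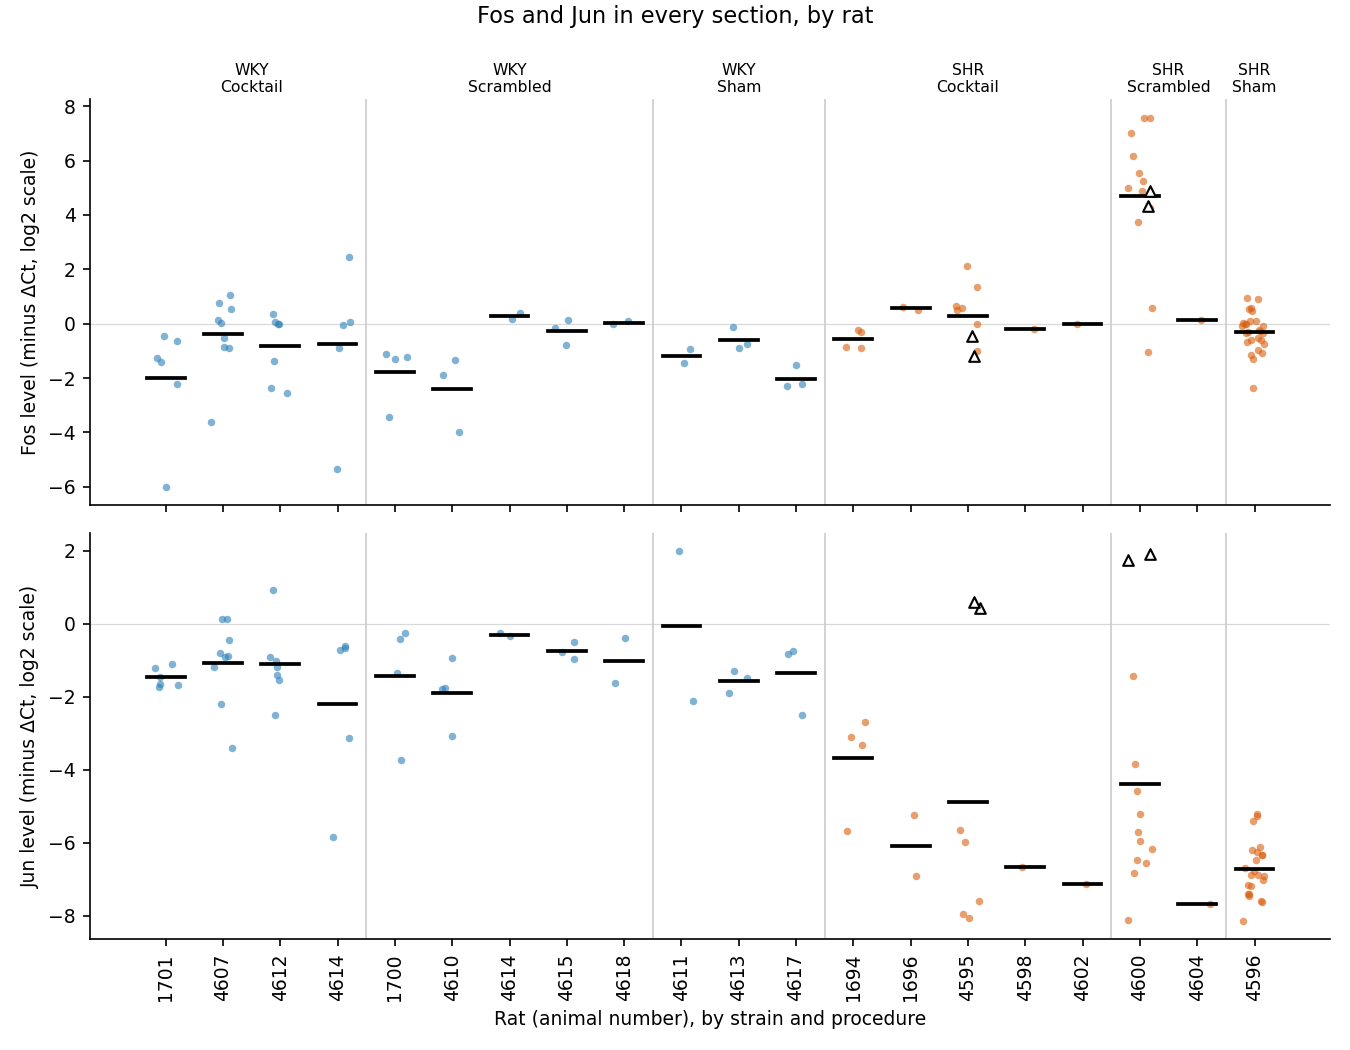
Level of Fos (top) and Jun (bottom) as minus ΔCt on the log2 scale (y axis) in every section, by rat within strain and procedure (x axis, animal number); blue points are WKY, orange points SHR, black lines the mean of a rat, and open triangles the 4 sections with neither a Th nor an Agtrap value. Jun of SHR rats lies below that of WKY rats except in a few sections, and Fos stands far above the rest in rat 4600.

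Among single sections, low Jun in SHR was the rule with a small number of exceptions. Of 52 SHR sections with a Jun value, 43 were below -4, against 1 of 50 WKY sections, and 34 were below every WKY section. Of those 52, the single SHR Sham rat gave 23 and Scrambled rat 4600 gave 13, so these counts describe sections that share animals. Above -2 lay 41 of the 50 WKY sections and 5 of the 52 SHR sections. The 27 sections of the single SHR Sham rat held 23 Jun values, all between -8.13 and -5.21, with an SD of 0.77. The section-to-section spread in that rat was therefore far smaller than the distance to WKY.

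Of the 5 SHR sections with high Jun, 4 had Jun above 0, at 0.44 and 0.60 in Cocktail rat 4595 and at 1.92 and 1.74 in Scrambled rat 4600. These are the same 4 sections that had neither a value of Th, the rate-limiting enzyme of catecholamine synthesis, nor one of Agtrap, a protein that binds the angiotensin II type 1 receptor. No other section of the 109 lacked Agtrap, while 6 lacked Th in all. In raw terms Jun came up at 10.6 to 13.7 cycles in these 4 sections, against 12.7 to 23.6 in the other 48 SHR sections. Their medians over genes, 12.4 to 15.6 cycles, were within the range of the other SHR sections, so that Jun was early without an early section as a whole.

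Other transcripts of the 4 sections divided. Of the 14 other genes reported that had values in them, 8 had a median nearer to that of WKY and 6 nearer to that of the other SHR sections. Nearer does not mean alike, since some medians lay outside both. Ptgr1 was at -2.88, against -0.64 in the other SHR sections and -0.89 in WKY, and Ptgs1 at -3.39 against -2.13 and -1.37. Others lay between the strains, such as Il1a at -3.41 against -4.50 and -2.82. Il10, an anti-inflammatory cytokine, was at 0.00 to 1.96 against a median of -2.13 in the other SHR sections and 0.50 in WKY, and EiF4e, the cap-binding factor that starts translation, at 2.87 to 4.41 against 1.97 and 2.67. Rgs4, a brake on G protein signalling, was at -0.44 to 2.999, with medians of -0.18 in the other SHR sections and 2.29 in WKY. Dbh, the enzyme that makes noradrenaline from dopamine, was at -0.64 and -0.39 in those of rat 4595, whose other sections ran from -10.0 to -4.30, and at -4.94 in one of rat 4600. Il10 and EiF4e were thus above the median of the other SHR sections in all 4. Rgs4 was at 2.999 and 2.71 in those of rat 4595 but at 0.59 and -0.44 in those of rat 4600. The Dbh value of rat 4600 was likewise near the median of the other SHR sections, -5.22. Ace and Alox5ap had medians nearer to SHR. Ace, the angiotensin-converting enzyme, was at -0.08 to 1.09 in them, at a median of 0.67 over all SHR sections and at 2.91 to 6.24 in the 41 WKY sections with a median raw Ct up to 18. Alox5ap, the helper protein of leukotriene synthesis, was at -0.99 to 0.93, above every WKY section (highest -1.02), although its lowest value was also the lowest of any SHR section. Without its pair of such sections, rat 4595 had a mean Jun of -7.04 ± 1.14 (SD over 5 sections) in place of -4.88, and rat 4600 had -5.53 ± 1.78 (SD over 11 sections) in place of -4.40. With all 4 left out, the strain difference of Jun was -4.66 under Cocktail (limma, adjusted p = 1.47e-05) and -5.63 over the controls (limma, adjusted p = 2.63e-06). The fifth section, at -1.42, also came from rat 4600 and was the one with the earliest Fos, at 6.27 cycles.

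Fos differed less between the strains than Jun did, and the strain call that limma made for it was lost when any 1 of 5 rats was left out. In WKY Cocktail the rat means of Fos were -2.0 in rat 1701, -0.38 in rat 4607, -0.84 in rat 4612 and -0.75 in rat 4614. In WKY Scrambled they were -1.77 in rat 1700, -2.40 in rat 4610, 0.29 in rat 4614, -0.28 in rat 4615 and 0.04 in rat 4618, and in WKY Sham -1.19 in rat 4611, -0.59 in rat 4613 and -2.02 in rat 4617. Scrambled held both the highest and the lowest of the 12 WKY rats. In SHR Cocktail, Fos was at -0.57 in rat 1694, 0.56 in rat 1696, 0.28 in rat 4595, -0.20 in rat 4598 and 0.00 in rat 4602. The SHR Sham rat was at -0.30, and the SHR Scrambled rats were at 0.15 (rat 4604, 1 section) and 4.69 (rat 4600, 14 sections). Rat 4600 stood more than 4 cycles above every other rat, and the remaining SHR rats overlapped with WKY.

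Under Cocktail the Fos level was 0.01 ± 0.44 in SHR (SD, n = 5) and -0.99 ± 0.70 in WKY (SD, n = 4), a log2 difference of 1.00 (standard error 0.750, 95% interval -0.57 to 2.58) that did not pass (limma, adjusted p = 0.365). An exact permutation test of the same means gave an adjusted p of 0.0452, in a comparison where that test called 10 of the 19 genes and limma 7. The difference was 0.38 without sections above 18 cycles (limma, adjusted p = 0.802), 0.39 with medians over sections (limma, adjusted p = 0.760), 0.60 in sections of 13 to 16 cycles (limma, adjusted p = 0.592) and 2.56 with no normalisation (limma, adjusted p = 0.162). Over the control procedures, Fos was higher in SHR by 2.11 (standard error 0.797, 95% interval 0.43 to 3.78), or 4.31-fold (limma, adjusted p = 0.0355), where 15.8% of the genes passed as higher. Without rat 4600 the difference was 0.97 (limma, adjusted p = 0.222). It also missed the threshold without WKY rat 1700 (1.99, adjusted p = 0.0536), rat 4610 (1.91, adjusted p = 0.0512), rat 4611 (2.12, adjusted p = 0.0506) or rat 4617 (1.92, adjusted p = 0.0747), all by limma. The difference was positive in all of these.

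In order of the group means, Fos was highest in SHR Scrambled, followed by SHR Cocktail, SHR Sham, WKY Scrambled, WKY Cocktail and WKY Sham, and each neighbour in that order overlapped with the next. For Jun the order was WKY Sham, WKY Scrambled, WKY Cocktail, SHR Cocktail, SHR Scrambled and SHR Sham. Only the step from WKY Cocktail to SHR Cocktail, a gap of 4.23, separated neighbours whose rats did not overlap, as was so for 31.6% of the 19 genes in that direction.

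**Figure D2:**
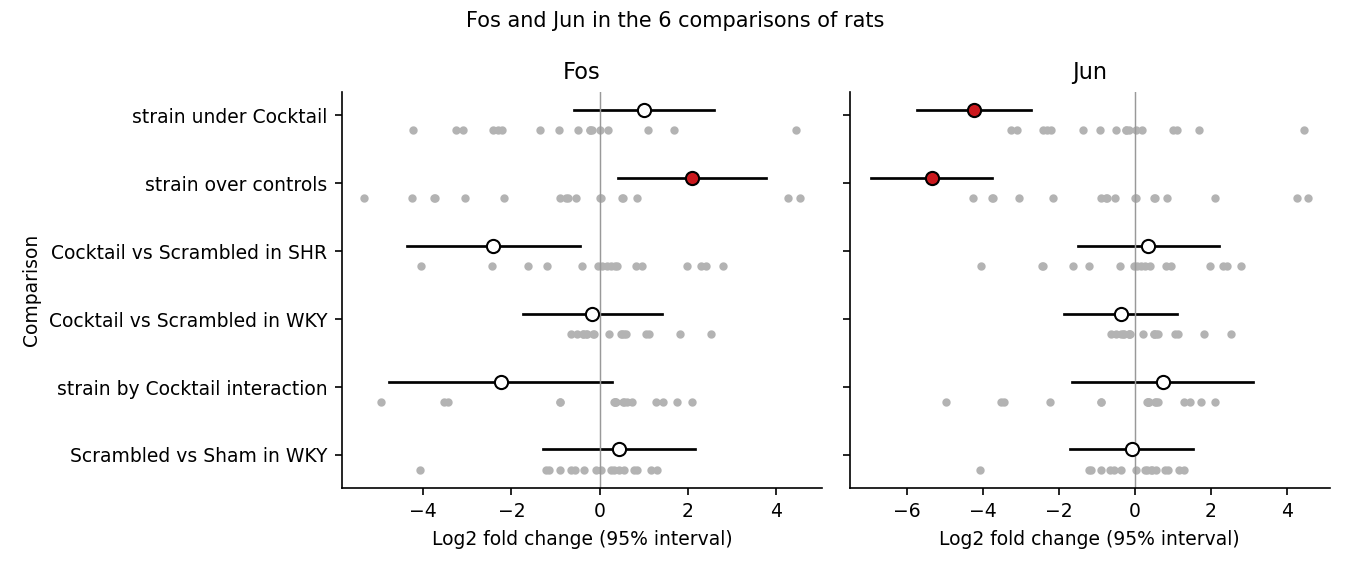
Log2 fold change (x axis) of Fos (left) and Jun (right) in the 6 comparisons of rat means (y axis); circles are limma estimates with 95% intervals, red where the adjusted p was below 0.05, and grey dots are the other genes reported in the same comparison. Strain differences are SHR minus WKY; Jun is at -4.23 and -5.35 in them, at or near the lower end of all genes, and the inhibitor effects on Jun lie near 0.

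The high Fos of rat 4600 was not spread evenly over its sections. In 12 of the 14 sections Fos ran from 3.75 to 7.58 (median 5.13), above every section of all other rats, whose highest value was 2.46. The other two sections had -1.05 and 0.58, in the range of other SHR rats. In raw terms Fos appeared at 6.27 to 14.1 cycles in this rat and at 11.8 to 18.4 cycles in the sections of the other SHR rats. The median over genes of its sections, 11.3 to 17.1 cycles, was in the range of the other SHR sections (11.6 to 17.1), apart from its earliest.

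Interleukin-1 transcripts and Ptgs2, picked after their values were seen, split the same way in rat 4600. Il1a, an interleukin-1 cytokine, was at -1.45 to 1.09 in the 12 sections with high Fos and at -5.92 and -4.60 in the pair without. Il1b, the second interleukin-1 ligand, was at -0.62 to 2.08 in the 12 sections, while it was missing in one of the pair and at -6.93 in the other. Ptgs2, the inducible cyclooxygenase and itself an immediate-early gene in neurons, was at -2.39 to 0.67 in the 12 sections and at -4.97 in the only one of the pair with a value. Th went the other way, at 2.53 and 0.89 in the pair and at -4.87 to 0.93 in the 8 high-Fos sections that had a value. Within this rat the Pearson r with Fos over sections was 0.88 for Il1a (14 sections), 0.84 for Il1b (13 sections), 0.49 for Ptgs2 (13 sections) and -0.67 for Th (10 sections), given as descriptions of sections that share 1 animal. For genes picked by this split, r over the same sections largely restates it. In the SHR Sham rat, the other rat with many sections, r with Fos was -0.06 for Il1a (26 sections), 0.12 for Il1b (12 sections), 0.33 for Ptgs2 (12 sections) and -0.35 for Th (27 sections). In SHR Cocktail rat 4595, r with Fos was 0.68 for Il1a (8 sections), 0.46 for Ptgs2 (6 sections) and 0.12 for Th (7 sections). Over the other genes of that rat, r with Fos ran from -0.76 for Jun (7 sections) to 0.89 for Actb (9 sections). In WKY Cocktail rat 4607, r with Fos was -0.17 for Il1a (9 sections) and 0.0008 for Il1b (6 sections). It was 0.62 for Ptgs2 (8 sections) and 0.13 for Th (9 sections) there. The other inflammatory genes did not follow Fos in rat 4600, where r was -0.06 for Alox5ap, 0.07 for Ltb4r, 0.08 for Ptgs1, -0.28 for Il10 (14 sections each) and -0.14 for Ptgr1 (9 sections). SHR Scrambled rat 4604, with 1 section, had Il1a at -5.48, Il1b at -5.42 and Th at 4.75, unlike the high-Fos sections of rat 4600.

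The comparison of Cocktail with Scrambled asks whether the inhibitors changed either gene. The SHR Scrambled rats had a mean Fos of 2.42 ± 3.21 (SD, n = 2), and the SHR Cocktail rats had the 0.01 given above, a log2 difference of -2.41 (standard error 0.935, 95% interval -4.38 to -0.44, limma, adjusted p = 0.0921). In this comparison 10.5% of the genes passed, 5.26% as lower after Cocktail. Without rat 4600 the Fos difference was -0.14 (limma, adjusted p = 0.973), and without rat 4604 it was -4.68 (limma, adjusted p = 0.00154), where the spread of the 1 rat left is taken from the other groups. The value therefore followed which Scrambled rat was used. For Jun the means were -5.68 ± 1.40 with Cocktail (SD, n = 5) and -6.04 ± 2.32 with Scrambled (SD, n = 2), a difference of 0.35 (standard error 0.882, 95% interval -1.50 to 2.21, limma, adjusted p = 0.877). An exact permutation test of 5 against 2 rats can go no lower than p = 0.0476. The comparison uses the same SHR Cocktail rats as the strain comparison under Cocktail.

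In WKY neither gene differed between Cocktail and Scrambled beyond the spread between rats. Mean Fos was -0.99 ± 0.70 with Cocktail (SD, n = 4) and -0.82 ± 1.19 with Scrambled (SD, n = 5), a log2 difference of -0.17 (standard error 0.750, 95% interval -1.75 to 1.41, limma, adjusted p = 0.872). Jun was at -1.45 ± 0.52 (SD, n = 4) and -1.08 ± 0.61 (SD, n = 5), a difference of -0.38 (standard error 0.708, 95% interval -1.87 to 1.11, limma, adjusted p = 0.860). These intervals leave room for changes of more than 1 cycle either way. The difference between the 2 strains' Cocktail effects, tested as an interaction, was -2.24 for Fos (standard error 1.20, limma, adjusted p = 0.298) and 0.73 for Jun (standard error 1.13, limma, adjusted p = 0.709). Without rat 4600 that of Fos was 0.03 (adjusted p = 0.977, limma), and without rat 4604 it was -4.51 (adjusted p = 0.0107, limma). Scrambled against Sham in WKY gave 0.44 for Fos (standard error 0.817, limma, adjusted p = 0.752) and -0.08 for Jun (standard error 0.770, limma, adjusted p = 0.949). Between Cocktail and Scrambled in WKY, limma and the exact permutation test each called 0% of the 19 genes, and 0 had an unadjusted p under 0.05 in either. For the interaction limma called 0 genes, with 2 at an unadjusted p under 0.05 (Ptgs2 and Il1b), and an exact test was not run. Between Scrambled and Sham in WKY both tests called 0 genes, with 2 at an unadjusted p under 0.05 by limma (Ace and Il1a) and 1 by the exact test, neither Fos nor Jun among them.

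The difference of Fos and Jun within a section does not contain the constant subtracted from that section, so it is free of the normalisation. The assays of the 2 genes may amplify with different efficiency, so the size of the difference in 1 group says nothing about which transcript was more abundant, and only its shift between groups is read. In WKY Cocktail, Fos minus Jun was -0.53 in rat 1701, 0.69 in rat 4607, 0.26 in rat 4612 and 1.44 in rat 4614. In WKY Scrambled it ran from -0.91 to 1.05 over 5 rats, and in WKY Sham from -1.13 to 0.97 over 3 rats. All WKY rats were thus close to 0. In SHR Cocktail it was 3.11 in rat 1694, 6.63 in rat 1696, 5.39 in rat 4595, 6.45 in rat 4598 and 7.13 in rat 4602. The SHR Scrambled rats were at 8.87 (rat 4600) and 7.83 (rat 4604), and the SHR Sham rat was at 6.48. Every SHR rat was above every WKY rat.

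The mean shift between strains was 5.28 cycles under Cocktail, or 38.8-fold, and 7.47 cycles over the controls, or 177-fold, with a pooled SD over rats of 1.12. Between Cocktail and Scrambled it was -2.61 in SHR and 0.29 in WKY. The SHR shift came with higher Fos in one of the Scrambled rats and lower Jun in the other, since rat 4600 had Fos at 4.69 and rat 4604 had Jun at -7.68. Over sections, Fos minus Jun exceeded 4 cycles in 44 of the 52 SHR sections with both values, against 2 of the 49 from WKY. Of those 52, the single SHR Sham rat gave 23 and rat 4600 gave 13, so the count describes sections that share animals. The widest separations, up to 12.2 cycles, were in rat 4600. No test is given for this difference, as it was chosen for description with its pattern known.

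**Figure D3:**
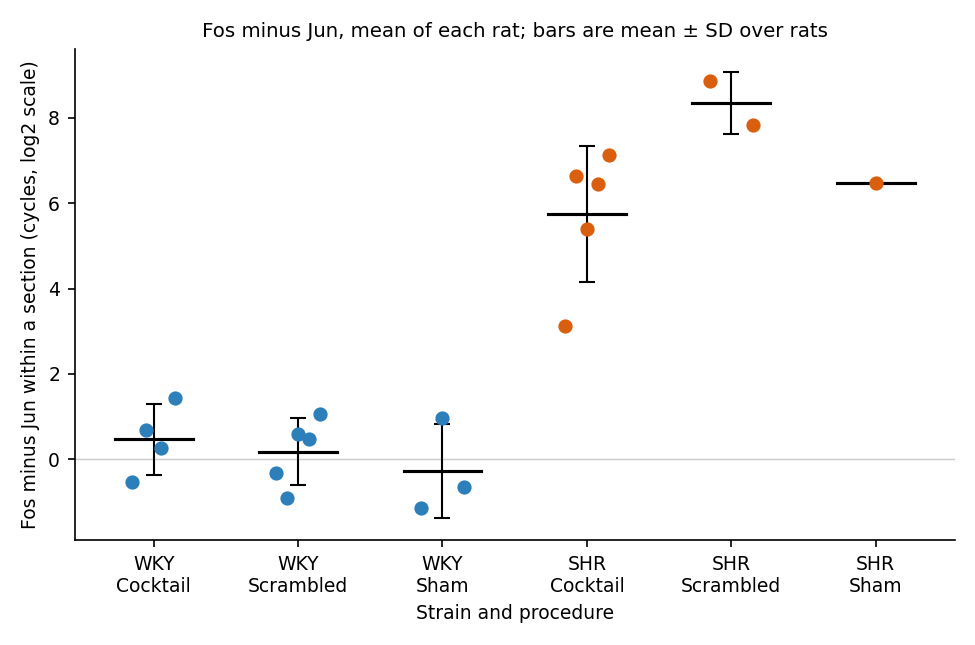
Fos minus Jun within a section in cycles on the log2 scale (y axis), averaged per rat (points, blue for WKY and orange for SHR), by strain and procedure (x axis); black bars are the mean ± SD over rats, with no SD for the single SHR Sham rat. WKY rats lie between -1.13 and 1.44, and SHR rats between 3.11 and 8.87.

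Within rats, Fos and Jun tracked each other weakly from section to section. With values centred on the mean of their rat, the pooled Pearson r was 0.15 over 78 sections of 9 rats with at least 4 sections each. Single rats ranged from -0.76 (rat 4595, 7 sections) to 0.94 (rat 1700, 4 sections), and r was above 0 in 7 of 9 rats. The negative value of rat 4595 includes its pair of sections with high Jun. With the 4 sections lacking Th and Agtrap left out, the pooled r was 0.40, without rat 4600 it was 0.08, and without sections above 18 cycles it was 0.01. Relative to Actb it was 0.46, where both genes share the Actb reading of the section, and as a Spearman correlation 0.31. By strain it was 0.39 in WKY and 0.06 in SHR with all sections in. The raw cycle numbers gave r = 0.76, but those also share the RNA input of the section.

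Across rats, a rat with high Fos was not reliably one with high Jun. In WKY, Pearson's r over 12 rat means was 0.46 (permutation test, p = 0.130, adjusted over both strains 0.260) and Spearman's rho was 0.52 (permutation test, p = 0.0825, adjusted 0.165). Without rats 4610 and 4617, the farthest from the median of Fos, r was 0.33. In SHR, over 8 rat means, r was 0.36 (exact permutation test, p = 0.424, adjusted 0.424) and rho was 0.10 (exact permutation test, p = 0.840, adjusted 0.840), and without rats 4600 and 1694 r was 0.41. None of these passed a threshold of 0.05, and the 2 strains were kept apart because they form separate clusters of Jun.

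**Figure D4:**
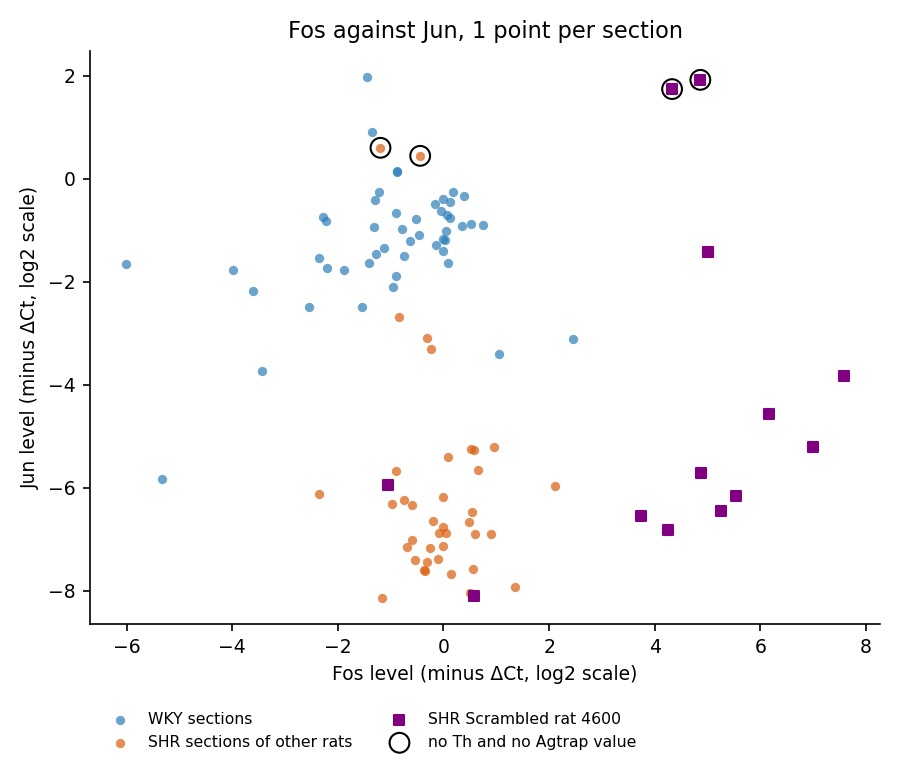
Jun level (y axis) against Fos level (x axis), both as minus ΔCt on the log2 scale, with 1 point per section that has both values; blue points are WKY, orange points SHR rats other than 4600, purple squares SHR Scrambled rat 4600, and rings mark the 4 sections with neither a Th nor an Agtrap value. Most SHR sections lie below -4 in Jun at Fos levels like those of WKY, and the squares extend to a Fos of 7.58.

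The relation of each gene to the others inside a rat was described without a test. Among genes with at least 60 shared sections, Fos had its highest pooled r with Ptgs1, the constitutive cyclooxygenase (0.30, 77 sections), Alox5ap (0.25, 80 sections) and Agtrap (0.23, 81 sections). These were 0.49, 0.48 and 0.37 when rat 4600 was left out, where Ace had the highest r (0.55). In WKY alone r with Fos was 0.69 for Ptgs1, 0.68 for Alox5ap, 0.62 for Ace and 0.60 for Dbh. In SHR alone it was 0.22 for Ptgs1, 0.10 for Alox5ap, -0.33 for Ace and -0.38 for Dbh. The WKY values include the sections with a median raw Ct above 18, where Fos had a median of -3.52. The lowest r of Fos was with Th (-0.27, 79 sections), Ltb4r, a receptor of leukotriene B4 (-0.18, 84 sections), and Rgs4 (-0.12, 85 sections). Without rat 4600 those with Th, Ltb4r and Rgs4 were -0.12, -0.27 and -0.02. The sections share the animal and the constant of normalisation.

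For Jun the highest pooled r was with Il10 (0.55, 79 sections), EiF4e (0.49, 82 sections) and Dbh (0.41, 71 sections). Single rats differed. In WKY Cocktail rat 4607 r was 0.98 for Il10, 0.97 for EiF4e and 0.69 for Dbh. In the SHR Sham rat it was 0.05 for Il10, 0.03 for EiF4e and -0.05 for Dbh. Without the 4 sections lacking Th and Agtrap, the pooled r with Il10 was 0.41, that with EiF4e 0.37 and that with Dbh 0.09. The pooled r with Dbh was therefore near 0 without those sections, which were all from SHR, though r in WKY alone was not. In WKY alone r with Jun was 0.82 for Il10, 0.66 for EiF4e, 0.67 for Ace, 0.46 for Alox5ap and 0.43 for Dbh. Ace, Alox5ap and Dbh thus had positive r with both Fos and Jun in WKY. In SHR alone, with the 4 sections in, r with Jun was 0.57 for Il10, 0.46 for EiF4e and 0.41 for Dbh. It was -0.06 for Ace and -0.39 for Alox5ap there. The WKY values include sections with a median raw Ct above 18, and no r of single genes without them is given. Such a section of Cocktail rat 4614 had Fos at -5.33, Jun at -5.83 and Ace at -3.05. The lowest r of Jun was with Actb, the cytoskeletal actin used as a reference gene (-0.42, 82 sections), Ptgr1, an enzyme that inactivates leukotriene B4 and prostaglandins (-0.37, 75 sections), and Ptgs1 (-0.29, 70 sections). Ptgs1 thus stood among the genes most like Fos and among those least like Jun, although its r with Jun was -0.01 without the 4 sections.

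**Figure D5:**
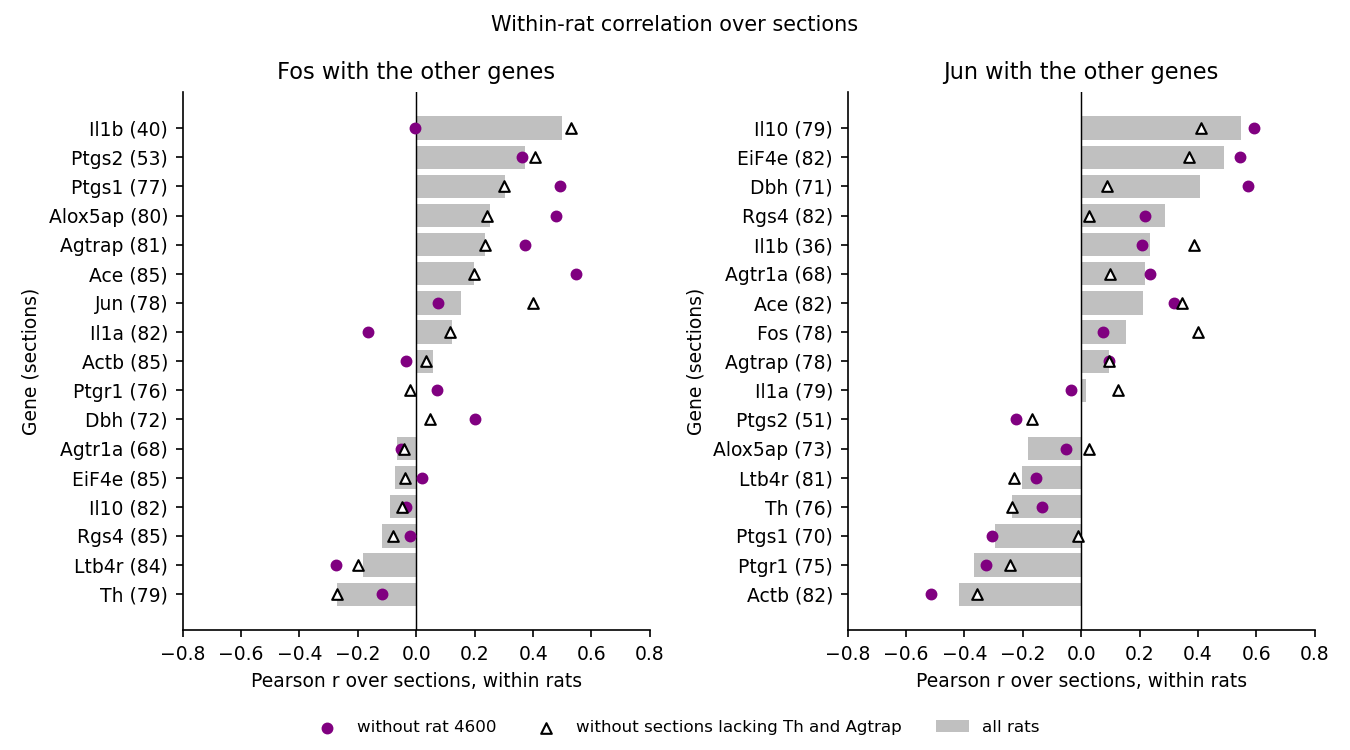
Pooled within-rat Pearson r over sections (x axis) of Fos (left) and Jun (right) with the other genes (y axis, number of sections in brackets); grey bars use all rats with at least 4 sections, purple points leave out rat 4600, and open triangles leave out the 4 sections with neither a Th nor an Agtrap value. Il1b falls from 0.50 to about 0 with Fos when rat 4600 is left out, and Dbh falls from 0.41 to 0.09 with Jun when the 4 sections are.

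Both genes varied more between the sections of a rat than between rats of a group. For Fos the SD between rats was 0.62 and that within rats 1.47, and for Jun the SD between rats was estimated at 0 and that within rats at 1.85, against medians of 0.56 and 1.42 over all genes. In WKY, low Fos came in sections with little RNA: it had a median of -3.52 in the 8 values with a median raw Ct above 18 and of -0.63 in the 41 others. The lowest Fos of all, -6.01 in rat 1701, and the lowest WKY Jun, -5.83 in rat 4614, were both in sections above 18, with Jun at a median of -2.50 in the 9 sections above 18 and of -0.92 in the 41 others. The part of RNA input in these values was not tested.

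Of 15 listed AP-1 and immediate-early genes only Fos and Jun were measured, so no other dimer partner, such as Fosb, Junb or Jund, could be followed. Th, Ptgs2 and Il1b were listed as genes that AP-1 or immediate-early-type signals can induce in other settings. Under Cocktail 0 of the 3 differed between strains by limma or the exact permutation test at an adjusted p below 0.05, and 0 had an unadjusted p under 0.05 in either. Over the controls, where 15.8% of all genes passed as higher by limma, 1 of the 3 did: Il1b, by 4.55 (standard error 1.39, adjusted p = 0.0135). The exact permutation test called 0 of the 3 there, with 1 at an unadjusted p under 0.05. Ptgs2 had 0.50 and Th -0.73 in that comparison. The Il1b difference drew on rat 4600, whose 12 high-Fos sections had Il1b at -0.62 to 2.08, against -5.42 in the other SHR Scrambled rat. Its size without rat 4600 is not given. Between Cocktail and Scrambled in SHR, Ptgs2 had -4.04 (standard error 1.17, limma, adjusted p = 0.0331), but rat 4600 was the only Scrambled rat with a Ptgs2 reading, so this sets the Cocktail rats against 1 rat. It was the one gene in the 5.26% of all genes called lower by limma. The exact permutation test called 0 of the 3, with 0 at an unadjusted p under 0.05, but it could not decide here. Even 5 against 2 rats can give it no p below 0.0476 before adjustment, and Ptgs2 had readings in fewer rats. Il1b had -2.43 and Th 1.98 there. In WKY, 0 of the 3 passed between Cocktail and Scrambled or between Scrambled and Sham by limma or the exact permutation test, and 0 had an unadjusted p under 0.05 in either.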

How the data were processed

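RNA of 19 genes was read by BioMark quantitative PCR with EvaGreen and 30 cycles on chips of 2 formats, per the labels' protocols. The deposited raw values are cycle numbers, treated as a score. The deposited normalised values are minus ΔCt on a log2 scale, a direction found from the values. In 44 sections the raw values stand under another section name of the same rat, and all were matched within the rat. Both tables lack the same 160 of 2071 values, which were left out of the means. Section values were averaged per rat and procedure, and the 20 profiles (19 animal numbers) were fitted with limma 3.58.1 in R 4.3.3, with 6 groups, a shared spread, two-sided tests and Benjamini-Hochberg adjustment over 19 genes at 0.05. The 2 profiles of rat 4614 entered as separate rats. Groups of 1 or 2 rats borrow the spread of the others. Variances came from lme4 1.1.37, and figures from matplotlib 3.10.9. The limma fit without weights or blocks was first tested on simulated data. Correlations within rats used rats with at least 4 sections, and the named genes are the 3 highest and 3 lowest with at least 60 sections. The names of all 19 genes matched RefSeq. Fos and Jun were taken by name, by a rule that uses no measured value, but members and lists were chosen with earlier results of these data known. For 1 of the 19 genes no value is given, although it entered the fits. The tables name no genome build. Alternatives covered normalisation, missing values, filters on sections, weights, the test and each rat left out. Depth does not apply to PCR; the number of rats and of cycles limits the precision.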

Additional observations from a re-analysis of the deposited data

How the results depend on the processing

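Of 308 alternative values of tested differences, 256 kept direction and side of the threshold, and the 29 that changed sign belonged to differences that had not passed. Of 69 values without a test, 66 moved by less than the spread between rats. The Jun strain difference under Cocktail missed the threshold with no normalisation (-2.69, limma, adjusted p = 0.148), and that over the controls under the exact permutation test (-5.35). The Fos difference over the controls missed it with no normalisation (1.20), centred on the median (1.83), relative to Actb (2.07), with missing values at the lowest value (2.20), with sections at a median cycle number of 13 to 16 (1.68), in a fit of only the groups compared and by exact permutation (both 2.11), and leaving out 1 rat gave 0.97 to 3.24. The Fos strain difference under Cocktail, 1.00, passed by exact permutation and in none of the other settings, which gave 0.38 to 2.56 (0.67 to 1.21 leaving out 1 rat). Fos in SHR, Cocktail against Scrambled, passed with rats of 1 section left out (-4.60), rats weighted by sections (-4.32) and all sections with the rat as a random block (-4.003), and leaving out 1 rat gave -4.68 to -0.14. The Fos interaction passed under the same settings (-4.44, -4.52 and -3.98), with -4.51 to 0.032 leaving out 1 rat. These settings give rat 4600, with 14 sections, more weight. Fos in WKY, Cocktail against Scrambled, turned positive relative to Actb (0.12), to Actb and EiF4e (0.28), with missing values at the lowest value (0.013), by medians (0.26), without sections above 18 cycles (0.18), without rat 4614 (0.031) and weighted by sections (0.20), and ran from -0.56 to 0.17 leaving out 1 rat. Fos between Scrambled and Sham in WKY turned negative with no normalisation (-0.67), relative to Actb (-0.41) and to Actb and EiF4e (-0.19). Jun in SHR, Cocktail against Scrambled, turned negative in sections of 13 to 16 cycles (-0.081), with rats of 1 section left out (-0.48), weighted by sections (-0.36) and with the random block (-0.23), with -1.29 to 1.998 leaving out 1 rat. Jun in WKY turned positive relative to Actb and EiF4e (0.089) and without rat 4614 (0.063). The Jun interaction turned negative with rats of 1 section left out (-0.11) and weighted by sections (-0.20), with -0.91 to 2.38 leaving out 1 rat. Jun between Scrambled and Sham in WKY became 1.34 in sections of 13 to 16 cycles, with -0.37 to 0.38 leaving out 1 rat. Fos minus Jun moved by more than the spread between rats under Cocktail in sections of 13 to 16 cycles (6.41), and in SHR, Cocktail against Scrambled, with rats of 1 section left out (-3.82), while its WKY value ran from -0.037 (a change of sign, without Cocktail rat 4614) to 0.62 leaving out 1 rat. The within-rat r of Fos and Jun ran from 0.01 without sections above 18 cycles to 0.76 with no normalisation. Beyond what the settings' own construction shows, the cause was not tested. Leaving out the SHR Sham rat gives no value over the controls, and an exact test was not run for the interaction. No paired analysis was possible because the numbers in the titles count sections within a group and pair no rats. The window of 13 to 16 cycles and the filter on Th and Agtrap were chosen after seeing the data.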
